A study of Mus musculus with 4 samples.

Results

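Natural killer (NK) cells whose transcripts included granzyme C were described in immune cells sorted from mouse tumours. A cell was taken as an NK cell when it had at least 300 genes, at most 15% mitochondrial UMIs (unique molecular identifiers, each counted as 1 transcript molecule), at least 2 UMIs of Ncr1 plus Klrb1c, fewer than 10 UMIs of C1qa, C1qb and C1qc together, and 0 UMIs of Cd3e, Cd3d, Csf1r and Cd79a. Of 3473 such cells, 1581 had at least 1 Gzmc UMI, which is 45.5% of the NK cells and 4.88% of all 32396 cells kept. The other 1892 NK cells had 0 Gzmc UMIs. Gzmc, Ncr1, Klrb1c and the genes of the exclusion gate chose the cells, so their levels are given as a description with no test.

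The samples were 4 droplet libraries, 2 from mice labelled WT and 2 from mice labelled cKO for Ufl1. All mice were 8 weeks old and untreated, and all carried MC38 tumours (a mouse colon adenocarcinoma line) grown from 100000 cells injected under the skin. On day 16 the tumours were removed, treated with collagenase for 60 min and stored frozen, and CD45+ cells, the immune cells, were sorted from the suspension. Ufl1 encodes the ligase that attaches the ubiquitin-like protein UFM1 to its targets, and the series title places its ablation in T cells. The Cre driver and the exons removed are not given in the sources used here, so that NK cells are not stated to be the ablated cells. The labels do not say that each library came from its own animal. P-values therefore measure only the spread between these libraries, which may be technical.

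NK cells kill infected and transformed cells by releasing granules that hold perforin, which opens the target cell's membrane, and granzymes, serine proteases that then act inside it. Mice carry a cluster of granzyme genes next to Gzmb on chromosome 14, and granzyme C is a member known from activated cytotoxic lymphocytes and from tissue-resident innate lymphoid cells of group 1 (ILC1). Circulating mature NK cells are known for integrin alpha-M and the sphingosine receptor S1pr5, whereas ILC1 and NK cells held in tissue are known for integrin alpha-1 and Zfp683.

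The 250 bases before the RefSeq start of Gzmc (GRCm38.p6, chr14:56234658-56234907, minus strand) are shown because this gene defines the cells, and those of Gzmb (chr14:56262335-56262584, minus strand) because it is the next granzyme gene of the cluster and is compared with Gzmc throughout. All are written 5′ to 3′ along the gene, and capitals mark the cAMP response element (CRE) letters TGACGTCA, which read the same on both strands.
Gzmc: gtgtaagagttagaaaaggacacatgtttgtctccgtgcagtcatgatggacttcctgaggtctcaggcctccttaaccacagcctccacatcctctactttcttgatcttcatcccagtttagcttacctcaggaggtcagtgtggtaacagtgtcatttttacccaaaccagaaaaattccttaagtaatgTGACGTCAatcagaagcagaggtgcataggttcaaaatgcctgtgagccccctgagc
Gzmb: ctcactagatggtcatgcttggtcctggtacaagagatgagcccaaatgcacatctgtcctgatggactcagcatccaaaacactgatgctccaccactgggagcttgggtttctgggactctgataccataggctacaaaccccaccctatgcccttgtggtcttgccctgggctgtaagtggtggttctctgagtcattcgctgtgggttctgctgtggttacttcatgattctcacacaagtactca

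Gzmc held these letters once, with the first base 57 bases before the start, and Gzmb did not hold them. They occurred in 508 of 32851 RefSeq promoter windows (1.55%). TGTGGT, the core letters of a Runx motif on either strand, occurred 2 times in each of both windows and in 14.0% of all windows. The AP-1 letters TGANTCA occurred once in Gzmb, 0 times in Gzmc and in 6.75% of all windows. The window of Gzmb was 50.2% identical to that of Gzmc, against 71.5% for Gzmf, 74.5% for Gzmg, 81.3% for Gzmd and 81.8% for Gzme. The Gzmb window stops at 56262335, short of its annotated gene body (56258838 to 56262260). Windows were cut at each RefSeq start. The 60 bases shown next begin 83 bases before that start in Gzmc, 108 in Gzmf, 103 in Gzmg, 87 in Gzmd and 88 in Gzme. These offsets enter the identities, so no order of likeness is read from them. A stretch of 60 bases around the CRE letters is shown for these 5 genes, because it is where they can be set side by side. Capitals here mark bases that differ from Gzmc.
Gzmc: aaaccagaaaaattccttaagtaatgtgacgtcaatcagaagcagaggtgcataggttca
Gzmf: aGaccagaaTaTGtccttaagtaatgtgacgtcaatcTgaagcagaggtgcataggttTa
Gzmg: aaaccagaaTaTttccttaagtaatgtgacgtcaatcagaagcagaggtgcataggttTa
Gzmd: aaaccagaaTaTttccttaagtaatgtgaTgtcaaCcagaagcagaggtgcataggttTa
Gzme: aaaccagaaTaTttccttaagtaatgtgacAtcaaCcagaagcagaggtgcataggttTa

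Gzmf differed from Gzmc at 6 of the 60 bases, Gzmg at 3, and Gzmd and Gzme at 5 each. The CRE letters were intact in Gzmc, Gzmf and Gzmg, and Gzmd and Gzme each differed from Gzmc within them. A match or mismatch is a description of the letters only. In the annotation, the gene bodies lie on the minus strand of chromosome 14 in the order Gzme (56117626 to 56120625), Gzmd, Gzmg, Gzmn, Gzmf (56205263 to 56211417), Gzmc (56231441 to 56234656) and Gzmb (56258838 to 56262260). No stretch of 90 bases in the transcripts of Gzmc, Gzmf or Gzmb was shared with another gene of the cluster. Gzmg, Gzmd and Gzme shared 13 of 820, 19 of 875 and 8 of 827 such stretches, so reads could be split among these 3 genes.

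Libraries held 64141857 to 79747752 UMIs in 7352 to 9466 barcodes. Values are given below first for the WT libraries, replicates 1 and 2, and then for the cKO libraries, replicates 1 and 2. In this order NK cells numbered 1266, 507, 1109 and 591, and those with Gzmc 662, 254, 474 and 191. WT replicate 1 and cKO replicate 2 shared 479 barcodes, against 85 to 104 for the other pairs, and these barcodes had a median of 17417 UMIs in the first library and 760 in the second. No barcode was an NK cell with Gzmc in more than 1 library, and 92 of the 1581 cells had a barcode found in another library. cKO replicate 2 also stood apart in Xist, the RNA of the silenced X chromosome: its cells with Gzmc had 845 Xist UMIs, against 0, 0 and 1 in the others. Ufl1, the targeted gene, had 147, 89, 122 and 64 UMIs in NK cells with Gzmc, or 20.1, 27.5, 19.3 and 24.5 CPM (counts scaled to the library total, here after edgeR's TMM factors). The WT and cKO ranges overlapped, and which exons the reads come from is not known, so these values check neither the labels nor an ablation.

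Gzmc UMIs per cell covered a wide range. Of the 1581 cells, 491 (31.1%) had exactly 1 UMI, 246 (15.6%) had 2 to 4, 174 (11.0%) had 5 to 19 and 670 (42.4%) had 20 or more. The median was 3, 20.5, 6 and 12 UMIs in the 4 libraries, and the highest cell had 2085, 1727, 1698 and 1492. Just inside the threshold lay 240, 49, 152 and 50 cells with 1 UMI, and just outside it the 1892 cells with none. Deeper cells were more often inside: median UMIs per cell were 4798 to 5931 in cells without Gzmc, 5318 to 7221 in cells with 1 Gzmc UMI and 16355 to 19047 in cells with 20 or more. Of all UMIs in cells with Gzmc, Gzmc took 10677, 9591, 7567 and 13684 CPM without TMM scaling, and in cells with 20 or more it took 12071 to 21364 CPM. The gate required UMIs of the activating receptors Ncr1 (NKp46) and Klrb1c (NK1.1) in every cell, which raises their share of UMIs in shallow cells, so no trend is read from them: Ncr1 was at 421 to 521 CPM in cells without Gzmc and at 330 to 394 CPM in cells with 20 or more, and Klrb1c at 462 to 548 CPM and 256 to 296 CPM. When each cell was thinned to 2000 UMIs, the median number of genes was 949 to 1014 in every class of Gzmc UMIs.

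**Figure D1:**
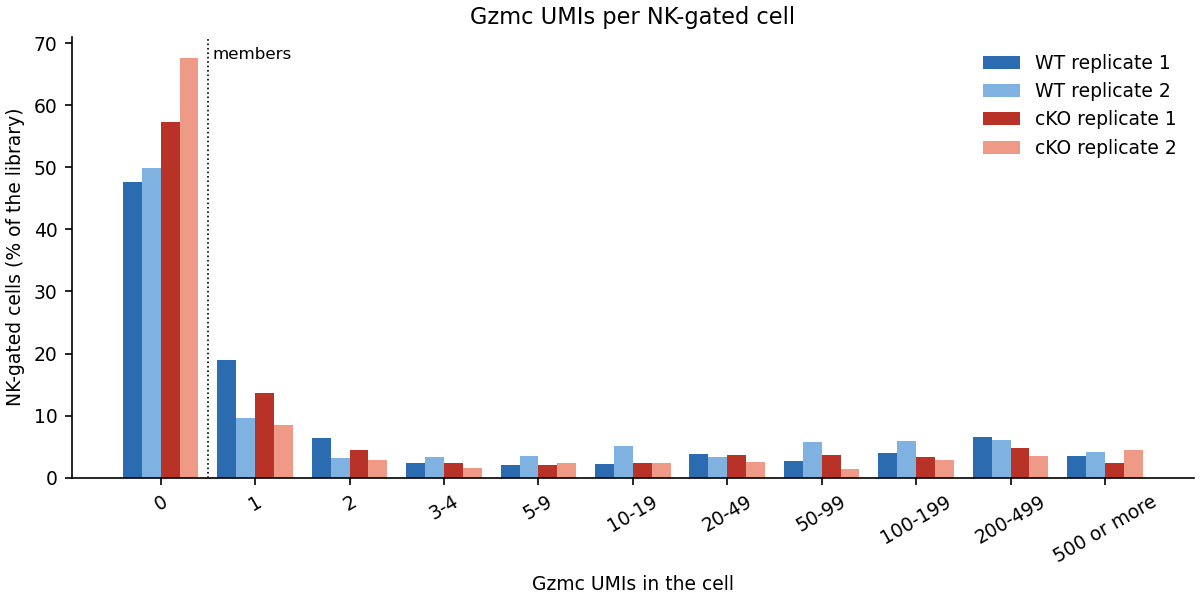
Share of NK-gated cells (vertical axis, percent of each library's NK cells) in classes of Gzmc UMIs per cell (horizontal axis), with 1 bar per library. Cells right of the dotted line are those with granzyme C, 31.1% of which had a single Gzmc UMI and 42.4% of which had 20 or more.

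A single Gzmc UMI was not limited to NK cells. At least 1 UMI was found in 27.9%, 11.6%, 20.1% and 6.54% of cells gated as B cells (median 2959 to 3650 UMIs) and in 30.5%, 9.98%, 17.0% and 8.79% of macrophage-gated cells (median 7587 to 10659 UMIs). The share in B cells was thus highest in WT replicate 1 and lowest in cKO replicate 2, and the WT and cKO ranges overlapped. No B-gated cell reached 10 Gzmc UMIs, whereas 285, 154, 223 and 101 NK cells did, 763 in all. CD8 T-gated cells reached 10 UMIs in 1.44%, 2.55%, 0.985% and 1.78% of cells. Between 67.1% and 75.7% of a library's Gzmc UMIs lay in the NK cells with Gzmc. Because free RNA can place a UMI in a droplet, results are also given for the cells with at least 10 Gzmc UMIs and for those with 1 or 2.

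The share of NK cells with Gzmc was 52.3% (95% Wilson interval 49.5% to 55.0%) in WT replicate 1, 50.1% (45.8% to 54.4%) in WT replicate 2, 42.7% (39.9% to 45.7%) in cKO replicate 1 and 32.3% (28.7% to 36.2%) in cKO replicate 2. Both WT libraries lay above both cKO libraries, and cKO replicate 2 was the lowest. These intervals cover counting error only. The means were 51.2% ± 1.55 (SD, n = 2) in WT and 37.5% ± 7.37 (SD, n = 2) in cKO, a difference of -13.7 percentage points. An exact two-sided permutation test gave p = 0.33, the smallest value that 2 against 2 libraries allow, so the design cannot reach 0.05. After thinning to 2000 UMIs the shares were 36.8%, 40.6%, 30% and 22.8% of NK cells, beside 20.8%, 7.10%, 11.4% and 2.59% of B-gated cells. With at least 10 Gzmc UMIs, where the B-gated share was 0 in every library, they were 22.5%, 30.4%, 20.1% and 17.1%, or 26.4% ± 5.56 against 18.6% ± 2.13 (SD, n = 2 each). The groups did not overlap under either definition. Of all kept cells, NK cells with Gzmc made up 9.11%, 2.71%, 6.1% and 2.39%. The CD45 sort sets this denominator. WT and cKO overlapped in it, with a difference of -1.67 percentage points that turned to 1.53 without WT replicate 1 and to 0.186 without cKO replicate 2.

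**Figure D2:**
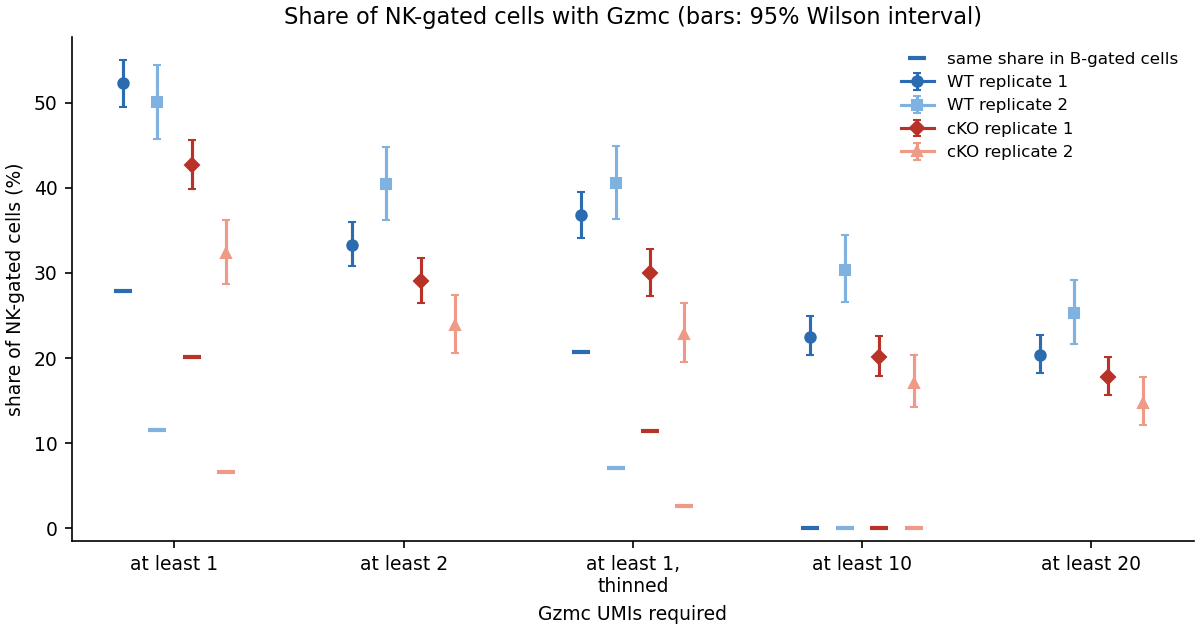
Share of NK-gated cells with Gzmc (vertical axis, percent) at 5 definitions of a cell with Gzmc (horizontal axis); points are libraries, error bars 95% Wilson intervals, and short dashes the same share in B-gated cells at 3 of the definitions. Both cKO libraries lie below both WT libraries at each definition, and the dashes fall to 0 at 10 UMIs.

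Across genes, NK cells with Gzmc were compared with NK cells without it on UMI sums, 2 sums from each of the 4 libraries, with the library as a block. In edgeR's quasi-likelihood test with Benjamini-Hochberg adjustment, 4093 of 9463 genes passed an adjusted p of 0.05 (43.3%), 2054 higher (21.7%) and 2039 lower (21.5%) in cells with Gzmc, around a median log2 fold change of 0.00. The genes tested were not used to choose the cells, but a deeper cell is more likely to show a Gzmc UMI, so thinned values are given where they bear on a result. With cells thinned to 2000 UMIs, 1311 of 7068 genes passed. In members with 1 or 2 Gzmc UMIs, 100 of 8511 genes passed. Some genes passed the filter on low counts only through the class where they were higher. Apart from the calls of the granzyme list, list counts and medians below did not leave such genes out.

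Of the 13 tested genes for granzymes and pore-forming proteins, 9 were lower, 2 did not pass, and 2 (Gzmf and Gzme) were higher but entered the test only through the cells with Gzmc, so their calls are not read as a result. The median log2 fold change of the 13 was -0.57. Gzma, the tryptase that is the most abundant granzyme of resting NK cells, was at 3678, 3568, 3453 and 4497 CPM in cells with Gzmc and at 8730, 8972, 8341 and 10509 CPM in cells without. Every library's cells with Gzmc lay below every library's cells without. Gzma was thus 2.41-fold lower (log2 fold change -1.27 ± 0.04 SE, adjusted p = 9.34e-13 in edgeR). Gzmb, the granzyme that activates caspases, was at 1947, 3154, 2169 and 3896 CPM against 1810, 2969, 1983 and 3894 CPM (0.08 ± 0.04, adjusted p = 0.113). Prf1, perforin, was at 456, 488, 363 and 555 CPM against 415, 396, 391 and 551 CPM (0.08 ± 0.06, adjusted p = 0.286). For both genes the libraries differed from each other by more than the 2 classes did. Both log2 fold changes turned negative with thinned cells, at -0.10 for Gzmb and -0.17 for Prf1, and Gzmb passed at 0.11 without cKO replicate 2 (adjusted p = 0.0309) and at 0.14 in cells with at least 10 Gzmc UMIs (adjusted p = 0.0343). Nkg7, a protein of cytotoxic granules, fell by 0.74 ± 0.04 on the log2 scale, Serpinb9b, a serpin of the family that inhibits granzymes, by 1.93 ± 0.09, and the chymase Cma1 by 2.46 ± 0.22.

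Transcripts of Gzmf and Gzme came from few cells and are described with no test. Gzmf UMIs numbered 436, 55, 150 and 1629 in cells with Gzmc and 2, 8, 1 and 5 in cells without, which gave 59.5, 17.0, 23.7 and 623 CPM against 0.586, 4.94, 0.228 and 2.04 CPM. cKO replicate 2 stood far above the others. In each library the 10 cells with the most Gzmf UMIs held 94.5%, 89.1%, 97.3% and 99.5% of the Gzmf UMIs in cells with Gzmc. Gzme UMIs numbered 277, 80, 25 and 240 with Gzmc and 2, 0, 2 and 2 without. Of the 763 cells with at least 10 Gzmc UMIs, 132 (17.3%) had any UMI of Gzmd, Gzme, Gzmf or Gzmg and 33 had 10 or more, against 12 of 818 cells with 1 to 9 Gzmc UMIs and 20 of 1892 without Gzmc. Gzmd and Gzmg did not pass the filter on low counts over both classes. Gzmd had 515, 187, 12 and 729 UMIs in cells with Gzmc and 0, 0, 1 and 0 without, and Gzmg had 59, 10, 1 and 77 with and 0 without. Gzmn, which lies between Gzmg and Gzmf, had 0 UMIs in NK cells of all 4 libraries.

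Ccl5, a chemokine that attracts T cells and myeloid cells, was at 2257, 908, 2336 and 2107 CPM in cells with Gzmc and at 9415, 9327, 10677 and 14154 CPM in cells without. No library's 2 classes came near each other, and Ccl5 was 5.96-fold lower (log2 fold change -2.58 ± 0.14, adjusted p = 3.15e-10). Without TMM scaling it lay at 8748 to 14417 CPM with 0 Gzmc UMIs and at 73.8 to 158 CPM with 20 or more, and it fell at each of the 4 steps between classes of Gzmc UMIs in all 4 libraries. With cells thinned to 2000 UMIs, a Ccl5 UMI was found in 15.8%, 17.5%, 12.6% and 16.8% of cells with at least 10 Gzmc UMIs, in 84.0%, 68.0%, 77.6% and 71.6% of those with 1 to 9, and in 91.8%, 86.2%, 92.1% and 94.5% of those with none. For Gzma these shares were 45.3% to 57.8%, 79.0% to 90.1% and 89.8% to 95.1%. At this depth most cells with at least 10 Gzmc UMIs thus had no Ccl5 UMI, and most of the others had one. Ccl4, a further chemokine, fell by 1.19 ± 0.06.

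Xcl1, the chemokine that attracts cross-presenting dendritic cells, was at 2052, 3490, 2312 and 2226 CPM in cells with Gzmc and at 939, 1722, 1003 and 756 CPM in cells without. All 4 libraries were higher with Gzmc, 2.33-fold on the fitted scale (1.22 ± 0.06, adjusted p = 2.12e-10). Ccl1, a chemokine that binds Ccr8, was at 126, 258, 71.8 and 369 CPM against 3.52, 5.56, 29.7 and 1.22 CPM. It passed the filter on low counts only with the sums of cells with Gzmc, so its call is no result. cKO replicate 1 had the smallest gap between its classes. A Ccl1 UMI was found in only 11.6% to 16.2% of the cells with Gzmc, and 10 cells held 58.9%, 90.1%, 72.2% and 91.3% of these UMIs. Spp1 (osteopontin) rose by 2.26 ± 0.20, and Areg, a ligand of the epidermal growth factor receptor, by 1.71 ± 0.21. In cells with Gzmc, 10 cells held 50.9%, 44.7%, 41.7% and 63.1% of the Spp1 UMIs. For Areg these shares were 49.6%, 68.6%, 48.9% and 88.2%. Only 7.25%, 11.0%, 10.3% and 9.42% of the cells with Gzmc had an Areg UMI, and cells without had 11, 24, 38 and 9 Areg UMIs in all. Ifng, the cytokine interferon gamma, was at 155, 143, 256 and 292 CPM against 176, 290.3, 297 and 364 CPM. It was lower with Gzmc in every library (-0.40 ± 0.09, adjusted p = 0.00217), but this did not pass with thinned cells (-0.16, adjusted p = 0.22) or in DESeq2 (-0.42, adjusted p = 0.11). Of 11 tested cytokine and chemokine genes, 3 rose and 6 fell, with a median of -0.44. Of 5 death ligand genes, 3 rose and 1 fell: Tnfsf10, which encodes TRAIL, rose by 1.16 ± 0.10, Ltb (lymphotoxin beta) rose by 1.29 ± 0.13, and Fasl fell by 0.91 ± 0.07.

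**Figure D3:**
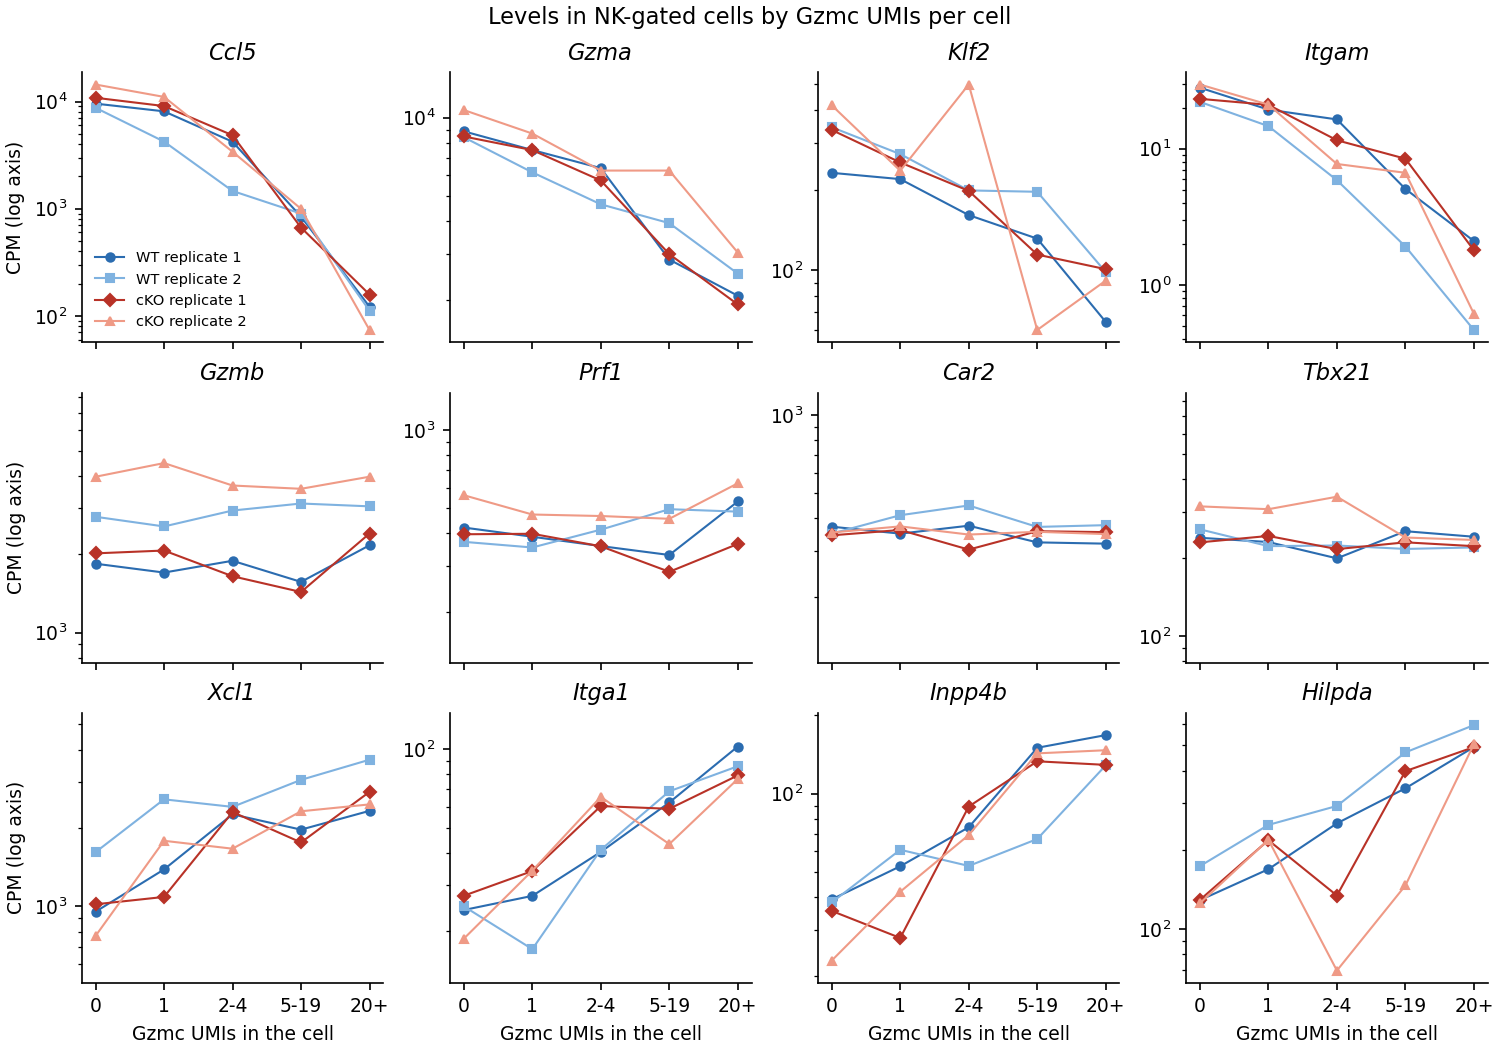
Level of 12 genes (vertical axes, CPM without TMM scaling, log scale) in NK-gated cells grouped by Gzmc UMIs per cell (horizontal axes), with 1 line per library. Ccl5 and Itgam fall at every step in all 4 libraries, Gzmb, Prf1, Car2 and Tbx21 neither rise nor fall at every step in any library, and Xcl1, Itga1, Inpp4b and Hilpda are higher at 20 or more UMIs than at 0 in every library.

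The genes of mature circulating NK cells were lower in cells with Gzmc. Of 17 tested, 16 fell, 0 rose and 1 did not pass, with a median of -1.25 beside 0.00 for all genes. With thinned cells 14 of 16 fell, and in members with 1 or 2 Gzmc UMIs 4 of 16 did. Itgam, integrin alpha-M, was at 7.37, 3.09, 6.96 and 4.97 CPM against 27.5, 23.5, 22.8 and 29.0 CPM (-2.07 ± 0.18). Every library with Gzmc lay below every library without. S1pr1 and S1pr5, the sphingosine receptors that carry lymphocytes out of tissue, fell by 2.35 ± 0.18 and 1.99 ± 0.18, and Klf2, which drives S1pr1, by 1.25 ± 0.06. Itgam and S1pr1 passed the filter on low counts only with the sums of cells without Gzmc, so their calls are no result. The counts and median of the list above did not leave such genes out. Zeb2, a factor of terminal NK maturation, fell by 1.22 ± 0.12. Klrg1, a receptor of late maturation, was the member that did not pass (0.15 ± 0.11, adjusted p = 0.296). Its value changed sign to -0.21 with thinned cells and to -0.02 without WT replicate 1. It passed as higher without cKO replicate 2 (0.35, adjusted p = 0.00962) and in cells with at least 10 Gzmc UMIs (0.42, adjusted p = 0.0134), and as lower without cells of very high UMI counts (-0.42, adjusted p = 0.0203), so that no direction can be given.

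Genes of ILC1 and tissue residency moved in both directions: of 19 tested, 11 rose and 5 fell, with a median of 0.44. With thinned cells 9 of 16 rose and 1 fell. Itga1, integrin alpha-1, which binds collagen, was at 75.0, 74.4, 67.2 and 64.3 CPM with Gzmc and at 23.7, 26.6, 26.9 and 18.4 CPM without (1.54 ± 0.10, adjusted p = 2.81e-09). Every library with Gzmc lay above every library without. Zfp683, which encodes the residency factor Hobit, rose by 1.67 ± 0.21, Inpp4b, a phosphatidylinositol phosphatase, by 1.77 ± 0.11, and the receptor Gpr34 by 3.21 ± 0.23. Gpr34 had 5, 5, 20 and 3 UMIs in cells without Gzmc. Zfp683 and Gpr34 passed the filter on low counts only with the sums of cells with Gzmc, so their calls are no result. Such genes were not left out of the list's counts and median above. Itgb7, an integrin subunit of gut homing, fell by 1.03 ± 0.07. Over all genes 21.7% rose and 21.5% fell. Of 12 chemokine and migration receptor genes, 2 rose, near that share, and 7 fell. One of those that fell was Cxcr4, the receptor for Cxcl12, at 106, 83.9, 69.9 and 62.4 CPM against 257, 223, 213 and 206 CPM (-1.48 ± 0.07). Values of cKO libraries were the lower ones in both classes.

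Of 33 transcription factors of NK cells, 2 rose, 22 fell and 9 did not pass, with a median of -0.43. Eomes, which sustains mature NK cells, was at 184, 151, 191 and 187 CPM against 309, 292, 327 and 296 CPM (-0.78 ± 0.06, adjusted p = 1.13e-08). Tbx21, which encodes T-bet, was at 230.2, 231, 226 and 252 CPM against 235, 274, 226 and 309 CPM (-0.13 ± 0.06, adjusted p = 0.0792). The 2 classes overlapped for Tbx21 and did not for Eomes. Ikzf2, which encodes Helios, rose by 0.90 ± 0.12, and Klf3 fell by 1.89 ± 0.15. Car2, a carbonic anhydrase listed among the markers of these cells, was at 326, 408, 351 and 347 CPM with Gzmc and at 366, 373, 339 and 347 CPM without (0.00 ± 0.05, adjusted p = 0.975). Of the listed markers that the gate did not use, Xcl1 thus separated the 2 classes, and Prf1 and Car2 did not pass the test.

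Activating receptors fell more often than they rose. Of 21 activating NK receptor and adaptor genes, 3 rose and 13 fell, among them Klrk1, which encodes NKG2D, by 0.24 ± 0.05. The Klrk1 call was lost with thinned cells (-0.11, adjusted p = 0.261) and without cells of very high UMI counts (-0.12, adjusted p = 0.0719). Of 16 inhibitory receptor genes, 5 rose and 5 fell, beside 21.7% higher and 21.5% lower of all genes. These counts lie near the shares of all genes and are no result about the list. Lag3, an inhibitory receptor for class II molecules, was at 28.1, 54.0, 32.4 and 45.9 CPM against 9.08, 22.9, 10.7 and 21.6 CPM (1.39 ± 0.12, adjusted p = 1.65e-07). Each library was higher with Gzmc, and WT replicate 2 was the highest in both classes. Ctla4 rose by 1.29 ± 0.17 and Tigit fell by 0.65 ± 0.05. The Ly49 receptors split: Klra5 rose by 1.72 ± 0.19, and Klra4 and Klra8 fell by 1.01 ± 0.07 and 0.91 ± 0.07. Il2ra, the high-affinity chain of the interleukin-2 receptor, rose by 1.74 ± 0.19, Tnfrsf9, which encodes 4-1BB, by 0.86 ± 0.05, and Thy1 by 1.09 ± 0.05. Of 11 genes of interleukin-12 and interleukin-18 signalling, 1 rose and 8 fell, with Il12rb2 lower by 1.27 ± 0.08 (log2 fold change -1.27) and Il18r1 by 0.94 ± 0.09 (log2 fold change -0.94).

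Of 36 proliferation genes, 34 rose, 0 fell and 2 did not pass, with a median of 0.98. With thinned cells 18 of 24 rose, and with 1 or 2 Gzmc UMIs 5 of 29. Mki67, which encodes the Ki-67 protein of cycling cells, was at 92.2, 77.8, 65.1 and 62.7 CPM against 18.8, 31.5, 41.8 and 44.1 CPM (1.14 ± 0.19, adjusted p = 9.47e-05). All 4 libraries were higher with Gzmc, and the gap was widest in WT replicate 1. Ccnb2, a mitotic cyclin, rose by 2.51 ± 0.20, Birc5 (survivin) by 1.78 ± 0.12, Tk1, thymidine kinase, by 1.81 ± 0.15, and Mcm3, a replication helicase subunit, by 1.11 ± 0.11. Ccnb2 passed the filter on low counts only with the sums of cells with Gzmc, so its call is no result. Such genes were not left out of the counts and median of the proliferation list. Top2a, the topoisomerase of dividing cells, was at 96.0, 88.6, 63.1 and 61.6 CPM against 30.8, 61.8, 49.5 and 66.1 CPM (0.62 ± 0.17, adjusted p = 0.00689). cKO replicate 2 was lower with Gzmc than without, and Top2a did not pass in DESeq2 (0.60, adjusted p = 0.23).

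Growth and metabolism genes were mostly higher. Of 21 translation and nucleolar genes, 20 rose (median 0.38), among them Srm, spermidine synthase (0.92 ± 0.12), and with thinned cells 10 of 20. Of 25 glycolysis and hypoxia genes, 16 rose and 2 fell (median 0.47), with thinned cells 12 of 21. Hilpda, a lipid droplet protein induced by low oxygen, was at 377, 531, 394 and 369 CPM against 127, 185, 127 and 123 CPM (1.58 ± 0.05, adjusted p = 1.25e-12), with no overlap of the classes. Aldoc, an aldolase, rose by 1.87 ± 0.18, Pgk1 by 0.98 ± 0.06 and Gapdh by 0.64 ± 0.05. Of 34 oxidative phosphorylation genes, 23 rose and 1 fell (median 0.19), and with thinned cells 9 rose and 2 fell. Of 19 genes of endoplasmic reticulum folding and stress, 12 rose and 2 fell: Pdia6, a disulphide isomerase, rose by 0.53 ± 0.05 and Herpud1, a stress-induced degradation factor, fell by 0.80 ± 0.07. Of 8 UFM1 conjugation genes, 4 rose. None of the 8 passed with thinned cells, and Ufl1 itself was at 0.32 ± 0.13 (adjusted p = 0.0561). It passed in cells with at least 2 Gzmc UMIs (0.37, adjusted p = 0.0301) and at least 10 (0.43, adjusted p = 0.0197), and with no filter on low counts (0.33, adjusted p = 0.0499).

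Interferon-induced and immediate early genes were mostly lower. Of 23 type I interferon response genes, 1 rose (Isg20, 0.28 ± 0.08) and 17 fell (median -0.41), with thinned cells 0 and 4 of 22. The Isg20 call was lost with thinned cells (0.25, adjusted p = 0.0793) and without cKO replicate 2 (0.16, adjusted p = 0.0591). Isg15, a ubiquitin-like protein, was at 197, 273, 265 and 309 CPM against 193, 437, 322 and 498 CPM (-0.40 ± 0.09). It was not lower in WT replicate 1, and its call was lost with thinned cells (-0.18, adjusted p = 0.144) and in DESeq2 (-0.40, adjusted p = 0.0641). Of 22 interferon gamma response genes, 2 rose and 14 fell, Irf1 by 0.84 ± 0.06, whereas the immunoproteasome subunit Psmb9 rose by 0.36 ± 0.05. Of 21 immediate early genes, 2 rose and 16 fell (median -0.39), and with thinned cells 12 of 20 fell. Junb, an AP-1 subunit, fell by 0.54 ± 0.05 and Nr4a1 by 0.45 ± 0.04.

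**Figure D4:**
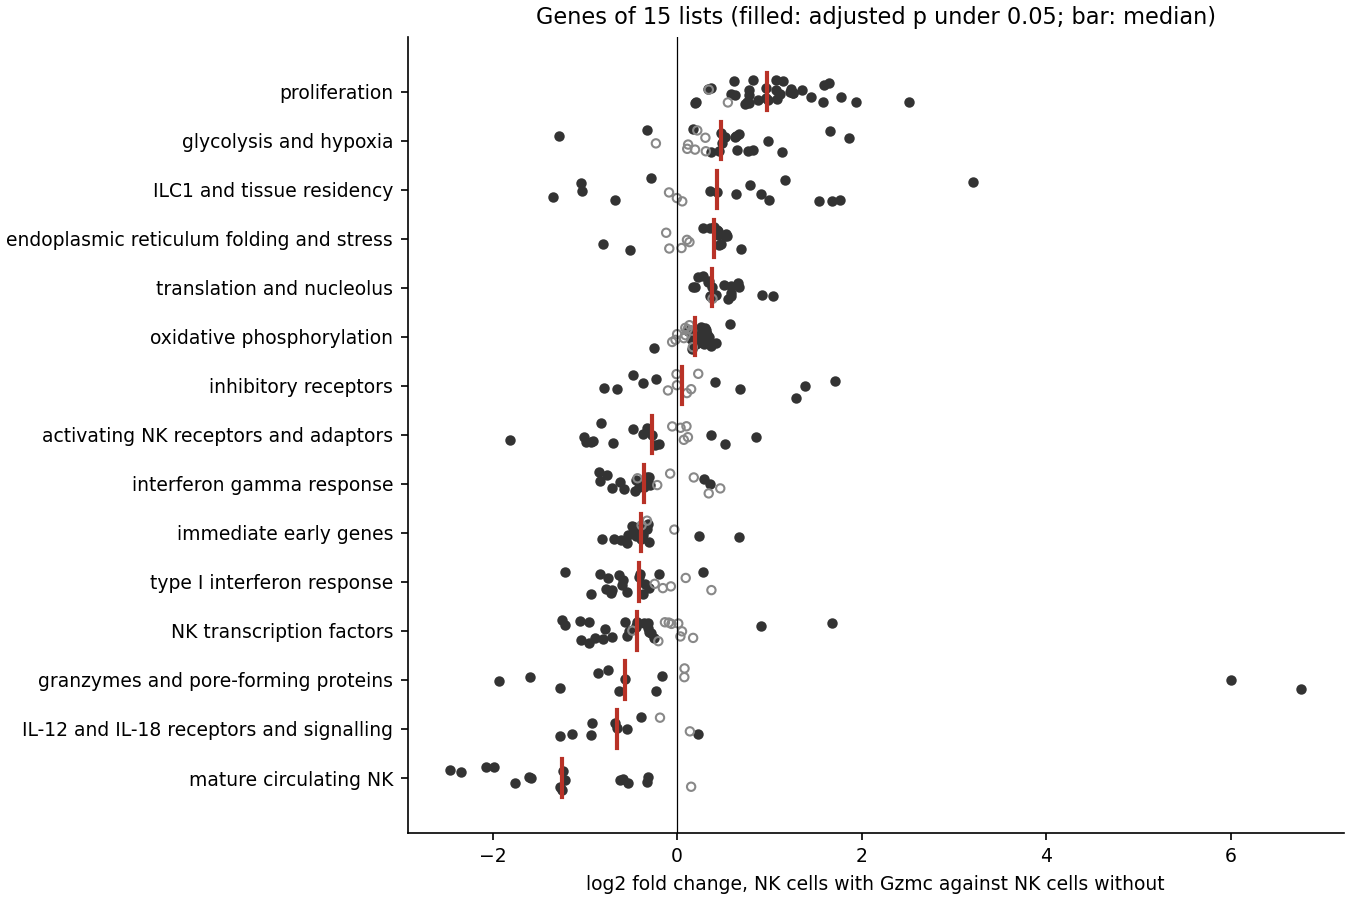
Log2 fold change between NK cells with and without Gzmc (horizontal axis) for the tested genes of 15 lists (vertical axis), 1 point per gene; filled points passed an adjusted p of 0.05 in edgeR and red bars are medians. The medians run from 0.98 for proliferation to -1.25 for mature circulating NK genes. Points and medians include genes that passed the filter on low counts only through the class where they were higher.

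Further lists held calls in both directions, read against the 21.7% higher and 21.5% lower of all genes. Of 23 genes of common gamma chain cytokine receptors and their targets, 3 rose and 13 fell (median -0.32), and of 17 transforming growth factor beta response genes 6 rose and 8 fell (median -0.16). Of 12 genes of granule exocytosis and lysosomes, which carry perforin and granzymes to the cell surface, 4 rose and 5 fell (median -0.02). Of 12 genes of immature NK cells 4 rose and 7 fell, of 6 costimulatory receptors of the tumour necrosis factor family 1 rose and 2 fell, and of 13 heat shock genes 3 rose and 4 fell. The counts of the last 2 lists lie near the shares of all genes and are no result about them.

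Among the genes with at least 50 CPM in the higher class, further large changes were a rise of Sema6d, a transmembrane semaphorin, and of Mt1, a metallothionein. Sema6d was at 52.7, 51.2, 43.8 and 52.8 CPM against 2.05, 4.94, 1.83 and 2.45 CPM. It had 7, 8, 8 and 6 UMIs in cells without Gzmc. Sema6d passed the filter on low counts only with the sums of cells with Gzmc, so its call is no result. Mt1 was at 84.7, 75.6, 126 and 91.0 CPM against 18.8, 14.8, 29.0 and 20.4 CPM (2.17 ± 0.09). Ehd1, an endosome recycling protein, and Cks1b, a cyclin-dependent kinase subunit, rose by 1.60 ± 0.09 and 1.58 ± 0.09. Clec2d, a ligand of Klrb1 receptors, fell by 1.41 ± 0.09, the kinase Sgk1 by 1.45 ± 0.11, the short-chain dehydrogenase Dhrs3 by 1.67 ± 0.12 and Itga2, an integrin subunit of NK cells, by 1.58 ± 0.10.

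Transcripts listed as markers of other cell types were present in both classes. In CPM without TMM scaling, the summed level of 17 T cell markers was 215 to 237 with Gzmc and 279 to 314 without, with Cd3e and Cd3d at 0 through the gate. The sum of 10 B cell markers was 116 to 125 with Gzmc and 39.9 to 53.0 without, with Cd79a and Pax5 at 0. Most of it was Ighm, the heavy chain of immunoglobulin M, at 113 to 119 CPM with and 35.9 to 55.6 CPM without after TMM scaling. An Ighm UMI was found in 49.5%, 59.1%, 55.3% and 57.1% of cells with Gzmc. In each library 10 cells held 12.5%, 18.4%, 15.3% and 27.1% of these UMIs. Igkc, an immunoglobulin light chain, was found in 0.302%, 0.394%, 0% and 1.05% of the same cells. Which cells the Ighm RNA came from was not tested. The sum of 20 macrophage and monocyte markers was 870 to 1342 CPM with and 912 to 1340 CPM without, with Csf1r at 0, and Lyz2 (lysozyme) fell by 1.78 ± 0.19. The 14 dendritic cell markers summed to 997, 775, 407 and 585 CPM with and 989, 583, 817 and 621 CPM without, so that among cells with Gzmc both cKO libraries lay below both WT libraries. This order is not read apart from that of the class II genes given below. The 12 tumour and stromal markers, with Krt8, Krt19 and Acta2 at 0, summed to 63.0 to 89.2 CPM with and 48.7 to 61.6 CPM without, and were higher with Gzmc in all 4 libraries. The 14 markers of ILC2 and ILC3, with Il5 at 0, summed to 434 to 489 CPM with and 495 to 599.5 CPM without, and were lower with Gzmc in all 4. Mast cell and basophil markers summed to 22.0 to 90.7 CPM with and 58.5 to 155 CPM without. The part of these transcripts in the results was not tested.

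Between genotypes, NK cells with Gzmc differed in few genes. In the sums of the 4 libraries, 6 of 9992 genes (0.06%) passed an adjusted p of 0.05 in edgeR, 2 higher (0.02%) and 4 lower (0.04%) in cKO. Ifng was at 155, 144, 255 and 290.3 CPM. Both cKO libraries lay above both WT libraries, 1.82-fold on the fitted scale (0.86 ± 0.14, adjusted p = 0.0267). Mt2, a metallothionein, was at 5.17, 5.90, 14.8 and 18.3 CPM, again with the cKO libraries higher (1.57 ± 0.27, adjusted p = 0.0381). The same order was seen in cells without Gzmc, where Ifng was at 179, 272, 302 and 371 CPM and Mt2 at 0.893, 2.90, 4.64 and 3.33 CPM without TMM scaling, and neither gene passed the test of a different effect given below. Mt2 rested on few UMIs: 38, 19, 94 and 48 in cells with Gzmc and 3, 5, 20 and 8 in cells without. Of those in cells with Gzmc, 10 cells held 84%, 84%, 61% and 81%. The calls of Ifng and Mt2 were each lost under other settings. For Ifng the adjusted p was 0.466 with thinned cells (0.73), 0.204 in cells with at least 10 Gzmc UMIs (0.79), 0.518 without barcodes found in another library (0.73) and 0.0588 without cKO replicate 2 (0.77). For Mt2 it was 0.197 in DESeq2 (1.58), 0.125 in cells with at least 10 Gzmc UMIs (1.56) and 0.157 without such barcodes (1.59), and the log2 fold change was 0.39 without cells of very high UMI counts (over 3 times their library's NK median). With the replicate number as a block, 3 genes passed, and Ifng, Mt2 and H2-Ab1 were not among them (adjusted p = 0.151 for each).

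The 4 lower genes were the class II antigen presentation genes H2-Aa, H2-Eb1, Cd74 and H2-Ab1. H2-Aa was at 126, 76.0, 13.9 and 11.8 CPM (-2.97 ± 0.23, adjusted p = 2.01e-06), and Cd74, the class II invariant chain, at 355, 225, 62.4 and 74.9 CPM (-2.10 ± 0.19, adjusted p = 1.65e-05). WT and cKO did not overlap for these genes. H2-Eb1 stood at -2.88 ± 0.23 and H2-Ab1 at -2.04 ± 0.29, and H2-Ab1 did not pass in DESeq2 (-1.96). In cells with at least 2 Gzmc UMIs H2-Aa stood at -2.37 (adjusted p = 0.133). The UMIs came from few cells: 12, 5, 8 and 3 of the members had at least 5 UMIs of H2-Aa, H2-Ab1 and H2-Eb1 together, and they held 85.9%, 79.4%, 34.5% and 30.5% of those UMIs. Class II molecules are known as products of dendritic cells and B cells. The part of such cells' transcripts in these calls was not tested. With those cells left out, 0 genes passed in edgeR (310 at an unadjusted p under 0.05), H2-Aa stood at -0.99 (adjusted p = 0.825), Ifng at 0.86 (adjusted p = 0.139) and Mt2 at 1.53 (adjusted p = 0.161). In cells with at least 10 Gzmc UMIs 0 genes passed (364 at an unadjusted p under 0.05), although H2-Aa stood at -3.39 (adjusted p = 0.334) and H2-Eb1 at -3.06 (adjusted p = 0.766).

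Genes named by rank that did not pass were Alox5ap, a leukotriene synthesis protein, at -1.91 (adjusted p = 0.0687), the heat shock genes Hspa1a and Hspa1b at 0.68 and 0.61, and Gadd45g, a growth arrest gene, at 0.83. All 23 tested type I interferon response genes had a positive log2 fold change, as did 4852 of all 9992 genes, but 0 passed (9 had an unadjusted p under 0.05). Their median was 0.34, against -0.01 for all genes. It was 0.19 without cKO replicate 2, where 19 of 23 were positive, and 0.23 without WT replicate 1, where 21 were. Of 36 proliferation genes 0 passed (10 at an unadjusted p under 0.05) and 7 had a positive value (median -0.25). Of 15 granzyme and pore-forming genes 0 passed (1 at an unadjusted p under 0.05). The share of all 9992 genes under this unadjusted threshold is not given. The unadjusted counts are therefore no result about these lists. Gzmf, at 59.3, 17.1, 23.6 and 619.7 CPM, had a log2 fold change of 2.96 (adjusted p = 0.688). It became -0.78 without cKO replicate 2, 4.21 without WT replicate 1 and 3.94 without cKO replicate 1. For the class comparison and this one, the sums in simulated data recovered 94% and 30% of genes changed 2-fold. The spread between simulated libraries was set and not estimated from these data, and only genes with higher counts were changed. Under these settings a 2-fold genotype change would often not pass.

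**Figure D5:**
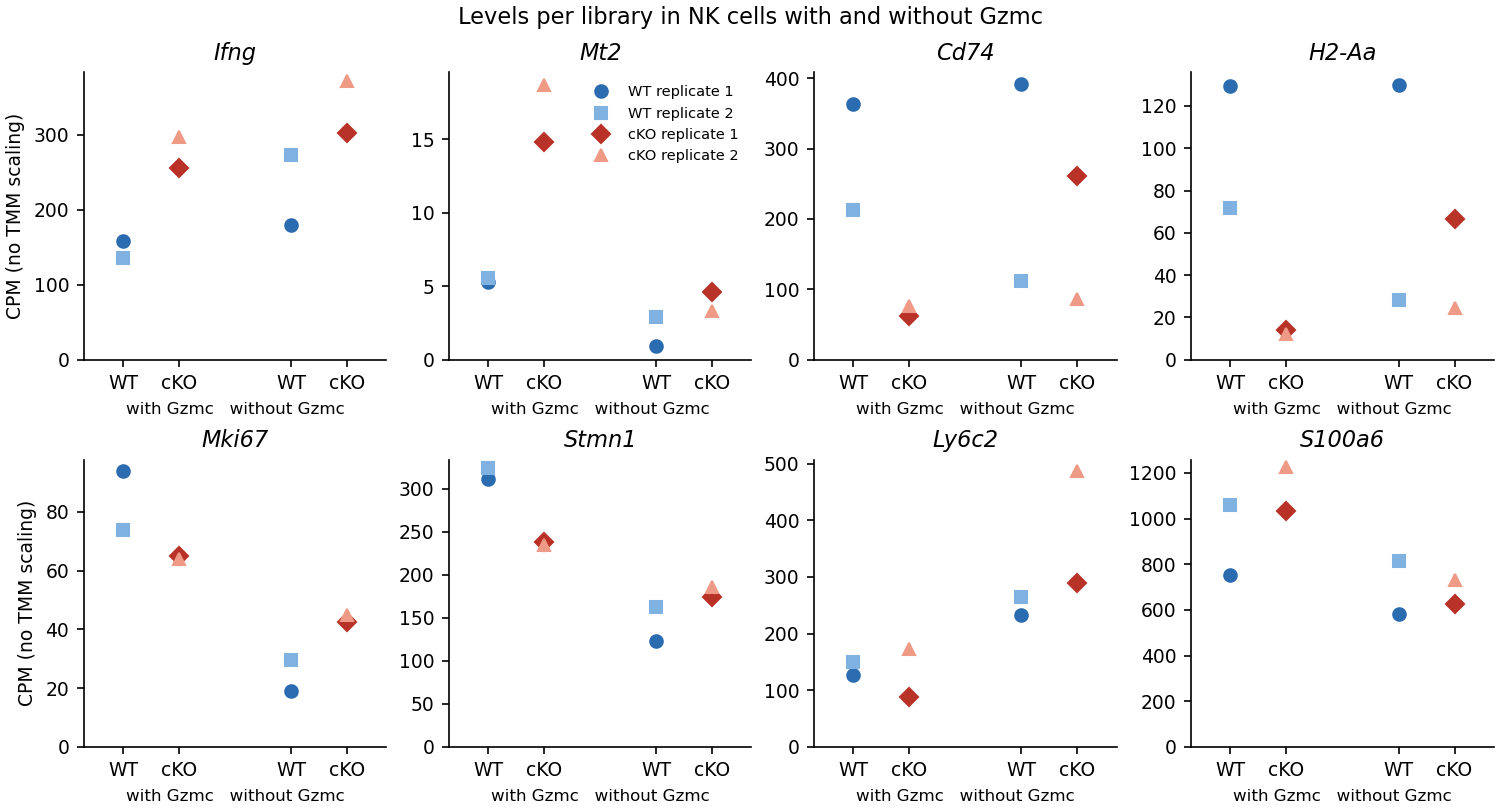
Level per library (vertical axes, CPM without TMM scaling) of 8 genes in NK cells with Gzmc (left pair of columns in each panel) and without Gzmc (right pair), by genotype; each point is 1 library. Among cells with Gzmc, Ifng and Mt2 are higher and Cd74, H2-Aa, Mki67 and Stmn1 are lower in both cKO libraries than in both WT libraries; among cells without Gzmc, Ifng and Mt2 are also higher in both cKO libraries.

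Whether the genotype effect differed between NK cells with and without Gzmc was tested with an interaction term in a fit that kept each library as a block. In edgeR 13 of 9866 genes (0.132%) passed, 12 with a lower effect (0.122%) and 1 with a higher one (0.0101%) in cells with Gzmc. The calls of Hbb-bs and Ly6d among them are no result, as given further below. Mki67 in cells with Gzmc was at 91.8, 78.3, 64.9 and 62.4 CPM and in cells without at 18.8, 31.5, 41.7 and 43.9 CPM. It was thus lower in both cKO libraries among cells with Gzmc and higher in both among cells without, and the difference of effects was -1.31 ± 0.23 (adjusted p = 0.0307). Few cells lay behind this: 10 cells held 85.9%, 92.2%, 72.7% and 78.7% of the Mki67 UMIs in cells without Gzmc. Stmn1, a microtubule protein of dividing cells, was at 304, 343, 238 and 229 CPM against 121, 173, 171 and 182 CPM (-0.76 ± 0.12, adjusted p = 0.0157). Pclaf, a partner of the replication clamp, was at 122, 151, 73.9 and 83.7 CPM against 17.7, 57.4, 43.7 and 69.5 CPM (-1.54 ± 0.29, adjusted p = 0.0415). WT replicate 1 had the lowest level of all 3 genes without Gzmc. Without it the adjusted p was 0.472 for Mki67 (-0.73), 0.127 for Stmn1 (-0.58) and 0.087 for Pclaf (-0.85), and without cKO replicate 1 it was 0.195, 0.0816 and 0.0964. In DESeq2 1 gene passed (74 at an unadjusted p under 0.05), and none of these 3 did. Of 36 proliferation genes 2 passed, both lower, and 35 had a negative difference (median -0.48, beside 0.00 for all genes).

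Ly6c2, a surface protein of some NK cells and monocytes, was at 123, 159, 88.4 and 168 CPM with Gzmc and at 230.4, 281, 283 and 476 CPM without. It was lower with Gzmc in every library, more so in cKO (-0.73 ± 0.11, adjusted p = 0.0128). In cells with Gzmc, 10 cells held 43.8%, 84.2%, 52.6% and 57.2% of the Ly6c2 UMIs. In cells without, these shares were 32.1%, 61.0%, 35.9% and 32.8%. S100a6, a calcium-binding protein, was the gene with the higher effect, at 733, 1122, 1030 and 1199 CPM against 575, 867, 613 and 714 CPM (0.39 ± 0.07, adjusted p = 0.0415). Neither passed without WT replicate 2 or without cKO replicate 1 (adjusted p = 0.105 and 0.102 for Ly6c2, 0.512 and 0.123 for S100a6). Neither passed with thinned cells, at -0.36 (adjusted p = 0.938) for Ly6c2 and 0.35 (adjusted p = 0.701) for S100a6.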

How the data were processed

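Single-cell RNA of immune cells was measured in 4 droplet libraries (2 WT, 2 cKO). Per barcode and gene, the deposited files give unnormalized UMI counts, made by the authors with Cell Ranger 6.1.1, per the file headers; the submitters' processing notes also name CASAVA 1.8 and Seurat. The build and annotation are not given in the sources used here; 31184 of 31253 feature IDs are in GENCODE M21, used for positions, and promoter windows are RefSeq's (GRCm38.p6).

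Cells were filtered and gated as in the text, on raw counts. The members, gene lists and tests were chosen with earlier results of these data known. B, T and macrophage gates served for background only. No doublet caller was run; the gate removes cells with other lineages' genes, and cells above 3 times their library's NK median were left out as an alternative. Thinning to 2000 UMIs left out 22 members.

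Counts were summed per library and class and tested with edgeR 4.0.16 (quasi-likelihood, TMM, filterByExpr, Benjamini-Hochberg, threshold 0.05) in R 4.3.3 with limma 3.58.1; DESeq2 1.42.0 was an alternative. The ± beside a log2 fold change is its standard error. The 10 gate genes stayed in library sizes and out of the tests. The fits were tested on simulated data. Shares used Wilson intervals (95%) and exact permutation over libraries. Python 3.11.15 with numpy 2.4.6, pandas 2.3.3, scipy 1.17.1, matplotlib 3.10.9 and Biopython 1.88 did the rest. Named are the 12 genes with the largest change each way among those past the threshold, of one sign in all 4 libraries and at 50 CPM or more; the 5 with the smallest p each way for genotype and for the difference of effects; list members; and the gate and marker genes. Replicate numbers do not pair the libraries by the labels. A few genes of the lists and of this rule are not reported here.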

Additional observations from a re-analysis of the deposited data

Results flagged for a closer look

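In edgeR's quasi-likelihood test of the interaction with Benjamini-Hochberg adjustment, 13 genes passed for a different genotype effect in NK cells with and without Gzmc. The calls of Hbb-bs and Ly6d among them are no result, as given below. The 3 proliferation-linked genes described above had adjusted p-values of 0.0157 for Stmn1, 0.0307 for Mki67 and 0.0415 for Pclaf. The histone genes Hist1h2ap, H1f4 and H2ac15 had adjusted p-values of 0.0157, 0.0175 and 0.0307, with differences of -1.05, -1.01 and -2.44 on the log2 scale. Hist1h2ap was at 102, 186, 157 and 90.9 CPM with Gzmc and at 35.0, 78.3, 138 and 56.9 CPM without. Ly6c2 and S100a6 had adjusted p-values of 0.0128 and 0.0415.

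Hbb-bs, a globin of red cells, had an adjusted p of 0.000306; it was at 1.36, 0.311, 0.315 and 0 CPM with Gzmc and at 5.00, 1.23, 301 and 267 CPM without. In each cKO library 1 cell without Gzmc had 5 or more Hbb-bs UMIs. Hbb-bs passed the filter on low counts only with sums of cells without Gzmc, so its call is no result. Ly6d, a marker of B-lineage and plasmacytoid dendritic cells, had an adjusted p of 0.0128, at 0.136, 8.69, 0 and 0 CPM with Gzmc and at 0.294, 0, 10.0 and 1.22 CPM without. Its 28 UMIs in WT replicate 2 with Gzmc lay in 1 cell, and its 44 in cKO replicate 1 without Gzmc in 2 cells. Ly6d passed the filter on low counts only with these 2 sums, so its call is no result. H2-Aa and H2-Eb1 had adjusted p-values of 0.0128 and 0.0135, with differences of -2.26 and -2.08, and the class II UMIs of WT cells with Gzmc lay mostly in the few cells given above. Ccr7, the receptor of lymph node homing, had an adjusted p of 0.0167, at 6.26, 29.2, 1.42 and 21.3 CPM with Gzmc and at 2.94, 3.08, 8.88 and 37.4 CPM without. In cKO replicate 2 its UMIs were 56 in 1 cell with Gzmc and 92 in 2 cells without. In WT replicate 2 with Gzmc they were 94 in 9 cells, of which 1 had 5 or more.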

How the results depend on the processing

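Genes called between NK cells with and without Gzmc numbered 4093; DESeq2 called 2238, thinned cells 1311, cells without very high UMIs 2071 and members with 1 or 2 Gzmc UMIs 100, and leaving out a library gave 3128 to 3953. Of 1387 values of the 82 named genes under alternatives, 1293 kept direction and side of the threshold. Values that changed sign were -0.10 (Gzmb) and -0.17 (Prf1), -0.21 (Klrg1) and 0.036 (Car2) with thinned cells; -0.037 (Gzmb), -0.067 (Prf1), -0.42 (Klrg1, which then passed as lower) and 0.044 (Car2) without cells of very high UMIs; -0.070 (Prf1), 0.00073 (Ccl4), 0.29 (Ifng), -0.34 (Spp1), -0.44 (Klrg1), -0.15 (Mt1), -0.092 (Klra5) and 0.041 (Car2) with 1 or 2 Gzmc UMIs; and -0.021 (Klrg1) and 0.060 (Car2) without WT replicate 1, where leaving out a library gave -0.021 to 0.35 for Klrg1 and -0.035 to 0.060 for Car2. Car2, at -0.0026 before, was also at 0.0042 in DESeq2, 0.0029 with RLE factors, 0.013 with no filter on low counts, 0.00018 with a stricter cell filter, 0.011 with C1q at 0, 0.0061 with no library block and 0.0024 without shared barcodes.

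Between genotypes 6 genes passed, against 51 with no filter on low counts, 3 with thinned cells, 2 without cells of very high UMIs, 3 with a replicate block, 10 with 1 or 2 Gzmc UMIs, 0 with at least 10, 0 without class II cells, 0 with both of these (352 at an unadjusted p under 0.05) and 31 to 45 when a library was left out; in such a fit the lone library is assumed to vary like the others. Ufl1 turned to 0.10 with thinned cells, 0.087 without WT replicate 2 and 0.07 without cKO replicate 1 (range without a library -0.38 to 0.087), and Gzmf to -0.78 without cKO replicate 2 (range -0.78 to 4.21). The difference of effects gave 13 genes, against 1 in DESeq2, 59 with no filter, 2 with thinned cells, 2 without cells of very high UMIs, 6 with at least 10 and 6 with 1 or 2 Gzmc UMIs, and 5 to 39 when a library was left out. S100a6 turned to -0.068 with 1 or 2 Gzmc UMIs.

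The share of NK cells with Gzmc stayed lower in cKO under each alternative, by -18.9 to -8.45 percentage points without a library, and the replicate block gave -13.7 (p = 0.5 by an exact permutation test within pairs). The share of all cells turned to 1.53 without WT replicate 1 and 0.186 without cKO replicate 2, with a range of -4.87 to 1.53. Same-numbered libraries correlated at 0.098 over 9992 genes in their deviations from the group means. The causes of these changes were not tested. The choices of at least 10 and of 1 or 2 Gzmc UMIs, of shared barcodes and of class II cells were made after seeing the data.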
